A study of Mus musculus with 8 samples.

Results

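The Toll-like receptor (TLR) adaptors *Myd88*, *Tirap*, *Ticam1* and *Ticam2*, the kinases *Irak1*, *Irak2*, *Irak3* and *Irak4*, the ubiquitin ligase *Traf6* and the transcription factor *Irf5* were followed as the signalling steps just below the TLRs. These 10 genes were taken by their symbols from the 26939 genes of the bulk RNA-seq tables, and all 10 were present. All 10 also passed the filter on low counts in each comparison. The libraries were made from poly-A RNA of tumor-associated macrophages (TAMs) taken at day 21 after inoculation of EO771, a mouse mammary carcinoma line. Viable cells that carried CD45, CD11b and F4/80 and lacked Gr-1 had been sorted as TAMs. The 8 libraries form 4 groups of 2, and the total count per library ranged from 15182618 to 26411936.

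The WT control and WT αMARCO groups came from wild-type mice, and the *Unc93b1* 3d/3d control and *Unc93b1* 3d/3d αMARCO groups from mice carrying the 3d mutation of *Unc93b1*, a germline point mutation that leaves the endosomal TLRs without function in every cell, not in TAMs alone. All mice carried EO771 tumors, and the study used young adult females for this tumor. The αMARCO groups received 100 µg of a rat IgG1 against the scavenger receptor MARCO (clone ED31) on days 3, 6, 9 and 12. The sample labels call the controls untreated, and their library names begin with PBS. The treatment protocol names a rat IgG1 isotype control instead, so the injection given to the controls is not settled. The genotype label of 1 of the *Unc93b1* 3d/3d control libraries reads 3d/4d. The study describes each control sample as a pool of several mice, and p-values measure only the spread between these pools. In bulk RNA, fewer cells of a type and less RNA per cell cannot be told apart.

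TLRs and receptors of the IL-1 family pass their signal through short adaptor proteins. MYD88 gathers the IRAK kinases into a complex that activates TRAF6 and then NF-κB, MAP kinases and IRF5, while TICAM1 (TRIF) serves TLR3 and, through TICAM2 (TRAM), TLR4. IRAK4 starts the kinase cascade, IRAK1 and IRAK2 carry it on, and IRAK3 (IRAK-M), found mainly in monocytes and macrophages, is known as a brake on it. In macrophages, UNC93B1 brings the nucleotide-sensing TLRs to the endosome, above the step at which these 10 genes act.

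The 3 motifs searched in the promoters were the κB consensus, by that name alone, the core of the interferon-stimulated response element (ISRE), written as GAAA, any pair of bases and GAAA, and the AP-1 site TGANTCA, each on both strands. RefSeq windows on GRCm38.p6, from 250 bases before to 50 bases after the start site, were found for 9 of the 10 genes, without *Ticam2*. A κB match was present in the windows of *Irak1*, an ISRE core match in that of *Myd88*, and the 7 other genes held a match to none of the 3. Over all 32851 windows, 8.46% held the κB consensus, 3.44% the ISRE core and 7.81% the AP-1 site. The bases before the start site are shown for *Irak3* and *Irak2*, since these are the 2 genes that passed the test below, and for *Myd88* and *Irak1*, since these hold a match. They lie at chr10:120202131-120202380 (minus strand) for *Irak3*, chr6:113638217-113638466 (plus strand) for *Irak2*, chr9:119340019-119340268 (minus strand) for *Myd88* and chrX:74023919-74024168 (minus strand) for *Irak1*. *Irak3* and *Irak1* each have a second window, with start sites at 120201597 on chromosome 10 and 74023921 on chromosome X, and the window shown is the one whose start site is the gene's annotated start in the deposited tables. Capitals mark the match, 40 bases before the start site in *Myd88* and 21 bases before it in *Irak1*, and the sequences without capitals hold no match to these letters. No 2 matches overlapped.
Irak3: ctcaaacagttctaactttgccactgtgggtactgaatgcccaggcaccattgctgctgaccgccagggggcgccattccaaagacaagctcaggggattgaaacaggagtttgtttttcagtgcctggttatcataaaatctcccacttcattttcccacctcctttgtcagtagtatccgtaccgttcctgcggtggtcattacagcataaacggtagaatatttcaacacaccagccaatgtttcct
Irak2: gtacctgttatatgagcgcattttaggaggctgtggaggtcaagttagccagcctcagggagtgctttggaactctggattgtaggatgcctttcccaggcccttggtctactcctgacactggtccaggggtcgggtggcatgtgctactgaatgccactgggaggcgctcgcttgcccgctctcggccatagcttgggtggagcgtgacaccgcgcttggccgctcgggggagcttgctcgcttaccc
Myd88: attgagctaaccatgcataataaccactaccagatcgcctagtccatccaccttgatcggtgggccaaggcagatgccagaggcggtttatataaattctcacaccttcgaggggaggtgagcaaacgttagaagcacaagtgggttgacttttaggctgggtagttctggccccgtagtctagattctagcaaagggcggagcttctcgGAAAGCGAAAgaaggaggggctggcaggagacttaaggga
Irak1: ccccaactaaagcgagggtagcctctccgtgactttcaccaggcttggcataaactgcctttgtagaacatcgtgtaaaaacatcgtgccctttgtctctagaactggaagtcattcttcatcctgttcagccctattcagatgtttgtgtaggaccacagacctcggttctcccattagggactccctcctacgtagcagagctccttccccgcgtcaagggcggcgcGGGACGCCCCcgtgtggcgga

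Levels of different genes were compared as RPKM, CPM divided by the annotated exon length in kilobases. *Irf5*, the transcription factor, had the highest level, with a mean of 115 and a range of 105 to 124 RPKM over the 8 libraries. *Myd88* followed at 78.8 RPKM, and its range of 63.7 to 99.2 RPKM did not overlap that of *Irf5*. *Irak1* (18.4 to 37.0 RPKM) and *Irak2* (18.99 to 38.96 RPKM) overlapped almost wholly, at means of 29.9 and 28.5 RPKM. *Irak4* and *Ticam1* had means of 11.6 and 10.4 RPKM, with ranges that overlapped each other and lay below those of *Irak1* and *Irak2*. The next places were taken by *Irak3* at 7.49 and *Traf6* at 6.53 RPKM, and the range of *Irak3*, 4.22 to 11.1 RPKM, overlapped those of both of its neighbours. *Tirap*, which tethers MYD88 to the membrane, and *Ticam2* were the lowest, at 4.26 and 2.87 RPKM, and their ranges overlapped too. The ratio of the highest to the lowest library was smallest for *Irf5*, at 1.19, and largest for *Ticam2*, at 4.34. The plot of the 10 genes by library shows these values as CPM.

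**Figure D1:**
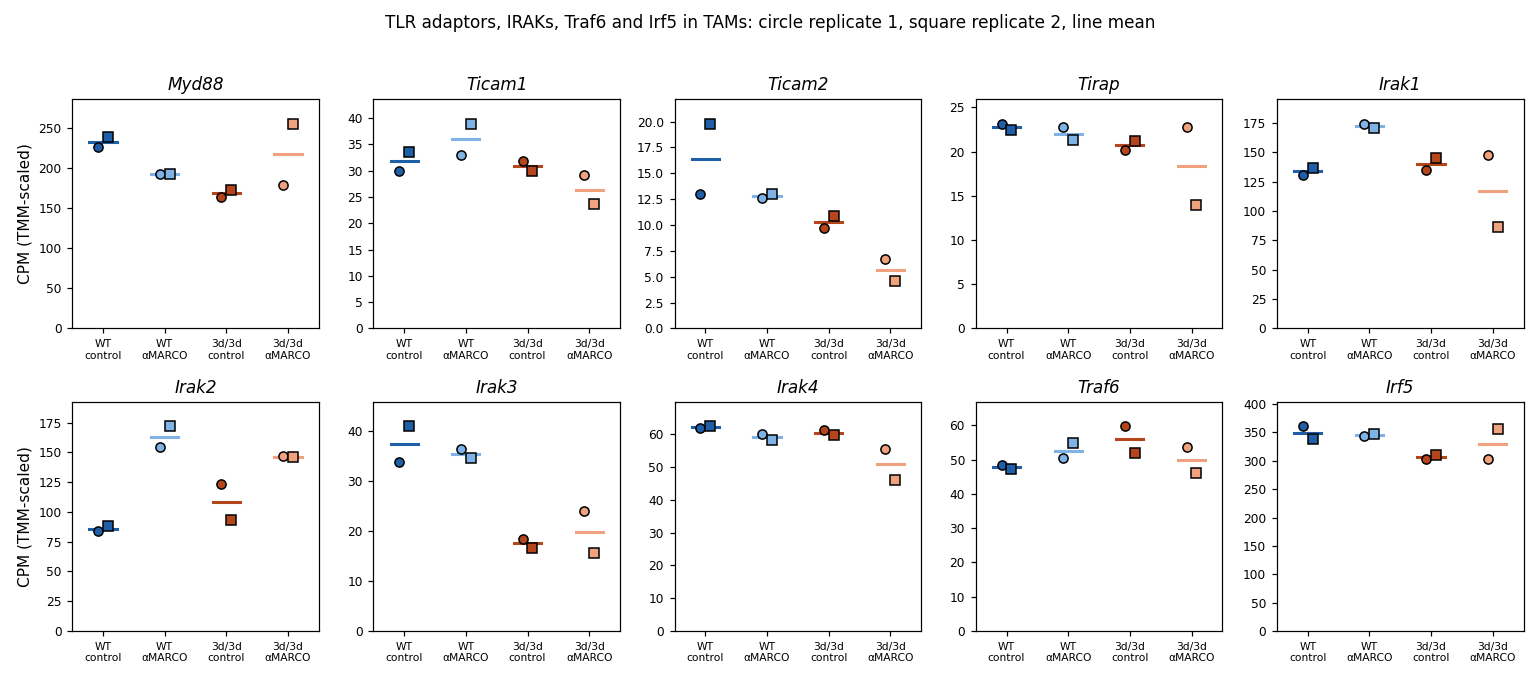
CPM of the 10 genes (vertical axes, counts scaled to the library total with TMM factors, each starting at 0) in the 4 groups (horizontal axes), with a circle for replicate 1, a square for replicate 2 and a line for their mean. *Irak3* is higher in both WT groups than in both *Unc93b1* 3d/3d groups, *Irak2* is higher in both αMARCO groups than in both control groups, and the *Unc93b1* 3d/3d αMARCO libraries lie far apart for several genes.

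The *Unc93b1* 3d/3d αMARCO libraries stood apart from each other. Their distance on log2 CPM was 132, against 56.1 to 74.6 within the other groups. Replicate 2 of this group had the lowest of all 8 RPKM values for 7 of the 10 genes and the highest for *Myd88*. The 7 genes were *Irak1*, *Irak4*, *Ticam1*, *Irak3*, *Traf6*, *Tirap* and *Ticam2*. The share of all genes that were lowest in this library was not counted. The median absolute log2 gap between the replicates of this group was 0.426 over 10478 genes. Among the 10 genes the largest gap, that of *Irak1*, was at percentile 77.1 of these gaps. The gaps were ranked without their sign, so they cannot show whether the low values were particular to the 10 genes. Values without each of these libraries are given below beside those that rest on this group. *Unc93b1* itself had 848 and 965 CPM in WT control, 539 and 660 CPM in *Unc93b1* 3d/3d control, 749 and 707 CPM in WT αMARCO TAMs, and 557 and 641 CPM in the last group. A point mutation need not change the RNA level, so these values check no label. *Marco*, the target of the antibody, was between 0.0680 and 0.942 CPM in all 8 libraries. Markers of gated macrophages summed to between 11088 and 16511 CPM.

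The first comparison asked whether the steps below the TLRs differ in control TAMs with and without functional endosomal TLRs. Only *Irak3* passed both thresholds, an adjusted p no higher than 0.05 from edgeR's quasi-likelihood test and a log2 fold change of 0.5 or more in either direction, so that 1 of 10 genes was called, beside 13.0% of the 15600 genes tested. *Irak3*, the inhibitory IRAK, had 33.7 and 40.9 CPM in WT control and 18.5 and 16.6 CPM in *Unc93b1* 3d/3d control TAMs. Both WT libraries lay above both *Unc93b1* 3d/3d libraries. The log2 fold change was 1.07 (SE 0.14, adjusted p = 0.00159 from edgeR). With each library left out in turn it stayed between 0.94 and 1.22 and was called each time, and it was not called when all 8 libraries were fitted together (adjusted p = 0.0545 from edgeR).

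*Myd88*, the adaptor shared by most TLRs, had 227 and 239 CPM in WT control and 164 and 173 CPM in *Unc93b1* 3d/3d control TAMs. The groups did not overlap, and its log2 fold change of 0.45 (SE 0.09, adjusted p = 0.0112 from edgeR) passed the p threshold but stayed below the fold threshold. *Ticam2*, the TRAM adaptor, was also without overlap, at 13.0 and 19.8 CPM in WT and 9.73 and 10.9 CPM in *Unc93b1* 3d/3d control TAMs. This log2 fold change of 0.65 (SE 0.22, adjusted p = 0.0660 from edgeR) did not pass the p threshold. It was called without WT control replicate 1, where it reached 0.93 on the log2 scale (adjusted p = 0.00280 from edgeR), and fell to 0.33 without WT control replicate 2 (adjusted p = 0.411 from edgeR), so its size rested on 1 library. *Irak2* was the only kinase with lower values in both WT libraries, 83.8 and 88.2 CPM against 123 and 93.1 CPM, and its log2 fold change of -0.35 (SE 0.13, adjusted p = 0.108 from edgeR) was not called. It was called without *Unc93b1* 3d/3d control replicate 2, at -0.54 (adjusted p = 0.00998 from edgeR), and was at -0.13 without replicate 1 of that group (adjusted p = 0.540 from edgeR). The 6 remaining genes, *Ticam1*, *Tirap*, *Irak1*, *Irak4*, *Traf6* and *Irf5*, had log2 fold changes between -0.24 (*Traf6*) and 0.17 (*Irf5*) and none passed the p threshold. Over the 10 genes the median log2 fold change was 0.07, beside -0.0036 over all genes tested. Both WT libraries were above both others for 6 of the 10 genes and below them for 2, beside 33.2% and 29.9% of all genes tested.

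Markers of other cells moved with the genotype in the control groups. The 8 T cell markers summed to 82.6 and 93.2 CPM in WT TAMs, against 15.8 and 6.90 CPM in the mutant controls, and 8 of 8 were called higher in WT. The 8 conventional dendritic cell markers summed to 807 and 418 CPM against 135 and 94.8 CPM, with 2 of 8 called higher. Of the gated macrophage markers, 2 of 10 were called higher and 1 lower. In WT αMARCO TAMs the T cell markers summed to 7.04 and 9.99 CPM and the conventional dendritic cell markers to 70.6 and 85.0 CPM. *Irak3* was at 36.3 and 34.6 CPM in these libraries, against 33.7 and 40.9 CPM in WT control. *Myd88* was at 193 and 193 CPM against 227 and 239 CPM, and *Ticam2* at 12.6 and 13.0 CPM against 13.0 and 19.8 CPM. The part of T cells and dendritic cells in the levels of *Irak3*, *Myd88* and *Ticam2* was not tested in any group. The 5 endothelial markers summed to 292 and 296 CPM in WT control, 197 and 199 CPM in WT αMARCO, 132 and 109 CPM in mutant control and 113 and 97.5 CPM in mutant αMARCO TAMs. *Pecam1*, which leukocytes also express, held most of this gap, at 203 and 199 CPM in WT control and 28.9 and 24.1 CPM in mutant control TAMs, while *Vwf* was at 8.11 and 7.54 CPM against 8.73 and 13.2 CPM and *Cdh5* at 9.05 and 6.65 CPM against 12.7 and 8.12 CPM. Of the 4 endothelial markers tested, 1 was called higher in WT control TAMs. Their part in the *Irak3* level was not tested. The 5 monocyte markers summed to 736 and 444 CPM in WT TAMs, against 898 and 605 CPM in the mutant controls, with overlap.

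The genes whose log2 CPM followed *Irak3* most closely over the 8 libraries, among 10477 genes, were *Ptprc* (Pearson r = 0.989), *Grap2* (r = 0.980) and *Bin2* (r = 0.979). *Ptprc* encodes CD45, one of the proteins used to sort the cells, *Grap2* an adaptor of immune receptors and *Bin2* a membrane-binding protein of blood cells. The points share their libraries and depth, and the correlation is a description. *Irak3* varied more than *Ptprc*: its CPM per CPM of *Ptprc* was 0.0281 and 0.0312 in WT control and 0.0311 and 0.0300 in WT αMARCO libraries. In *Unc93b1* 3d/3d TAMs it was 0.0205 and 0.0205 without and 0.0251 and 0.0196 with αMARCO. Each of the 4 WT ratios was above each of the 4 *Unc93b1* 3d/3d ratios.

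The second comparison asked what αMARCO changed in WT TAMs. It shares the WT control libraries with the first. *Irak2*, one of the IRAKs that carry the signal on to TRAF6, was the only one of the 10 genes called, beside 20.7% of the 15630 genes tested. It rose from 83.8 and 88.2 CPM in WT control to 155 and 172 CPM in WT αMARCO TAMs. The groups were far apart relative to the gap between replicates, and the log2 fold change was 0.93 (SE 0.08, adjusted p = 0.000117 from edgeR). It was called without any single library, with values between 0.85 and 1.02, and also with all 8 libraries in 1 model (adjusted p = 0.04995 from edgeR).

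*Irak1* had 131 and 136 CPM in WT control and 174 and 171 CPM in WT αMARCO TAMs. This log2 fold change of 0.37 (SE 0.08, adjusted p = 0.00449 from edgeR) passed the p threshold and not the fold threshold. *Myd88*, upstream of the IRAKs, was at 193 and 193 CPM with αMARCO, below both WT control libraries, and its log2 fold change of -0.26 (SE 0.08, adjusted p = 0.0254 from edgeR) likewise missed the fold threshold. Without any 1 library other than WT control replicate 1, its adjusted p was above 0.05 too, at 0.0526 to 0.162 from edgeR. *Irak3* had 36.3 and 34.6 CPM with αMARCO, within the range of its controls, with a log2 fold change of -0.07 (SE 0.11). *Ticam2* had 12.6 and 13.0 CPM with αMARCO, and its log2 fold change of -0.35 (SE 0.19, adjusted p = 0.196 from edgeR) was called only without WT control replicate 1 (-0.62, adjusted p = 0.00470 from edgeR) and was -0.02 without WT control replicate 2 (adjusted p = 0.942 from edgeR). *Ticam1*, *Tirap*, *Irak4*, *Traf6* and *Irf5* had log2 fold changes between -0.06 and 0.19. The median over the 10 genes was -0.03, beside -0.01 over all genes tested. The αMARCO libraries were above both controls for 3 of the 10 genes and below both for 2, beside 34.1% and 36.8% of all genes tested.

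Relative to *Irak4*, the first kinase of the complex, *Irak2* stood at 1.35 and 1.41 in WT control and at 2.58 and 2.95 in WT αMARCO TAMs, as CPM ratios within a library. The same ratio was 2.01 and 1.56 in *Unc93b1* 3d/3d control and 2.65 and 3.16 in *Unc93b1* 3d/3d αMARCO TAMs. The 4 αMARCO ratios thus exceeded the 4 control ratios. The ratio of 3.16 was in replicate 2 of its group, where *Irak4* had its lowest value of the 8 libraries, 46.1 CPM. *Irak4* was at 55.5 CPM in replicate 1 of that group, and *Irak2* at 147 and 146 CPM in the 2 replicates. The share of mitochondrial counts was 1.03 to 1.25% in the 4 control libraries, 2.37 and 2.74% in WT αMARCO libraries, and 2.06 and 1.39% in those of the mutant. Of the 8 T cell markers 8 were called lower with αMARCO in WT, of the 8 conventional dendritic cell markers 5, and of the 10 gated macrophage markers 4. The part of these differences in the *Irak2* level was not tested.

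The span of *Irak2* (chromosome 6, 113638467 to 113695026, plus strand, GRCm38) holds 3 other annotated loci, whose values were looked up after those of *Irak2* were known. *Gm43912*, on the same strand and sharing 0 exon bases with *Irak2*, had 2.58 and 2.61 CPM in WT control, 4.90 and 4.97 CPM in *Unc93b1* 3d/3d control and 8.30 and 9.06 CPM in WT αMARCO TAMs. It rose with αMARCO in WT by a log2 fold change of 1.75 (SE 0.22, adjusted p = 0.000521 from edgeR) and was lower in WT than in *Unc93b1* 3d/3d control TAMs by -0.94 (SE 0.28, adjusted p = 0.0467 from edgeR). *Gm43963*, on the opposite strand and sharing 196 bases with *Irak2* exons, rose with αMARCO in WT by 1.17 (SE 0.22, adjusted p = 0.00330 from edgeR). In *Unc93b1* 3d/3d αMARCO TAMs both loci differed widely between the libraries, with 7.04 and 2.38 CPM for *Gm43912* and 9.66 and 1.84 CPM for *Gm43963*, where *Irak2* itself had 147 and 146 CPM. *Gm43964*, an antisense locus, was at 0 to 27 counts in all 8 libraries. *Gm43912* lies on the strand of *Irak2*, so even counting by strand would not separate its reads from those of *Irak2* pre-mRNA. Whether counting used strand is not given in the sources used here. For *Gm43963* and *Gm43964*, on the opposite strand, reads of *Irak2* RNA and of the locus therefore cannot be told apart.

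**Figure D2:**
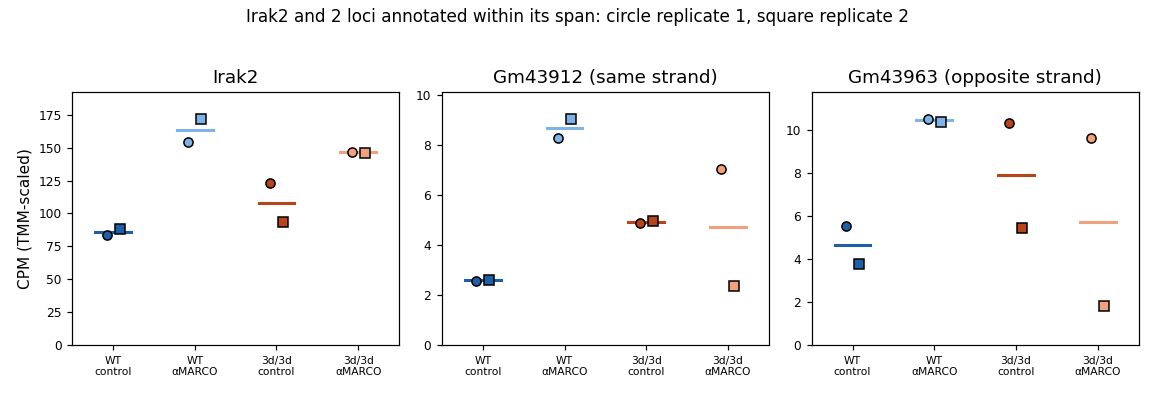
CPM (vertical axes, TMM-scaled, starting at 0) of *Irak2* and of *Gm43912* and *Gm43963*, which are annotated within its span, in the 4 groups, with a circle for replicate 1, a square for replicate 2 and a line for the mean. In WT all 3 are higher with αMARCO, and in *Unc93b1* 3d/3d αMARCO TAMs *Irak2* is at 147 and 146 CPM while the other loci lie far apart between the replicates.

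The genes most like *Irak2* over the 8 libraries were *Gm15832* (r = 0.986), a noncoding transcript of chromosome 1, *Dyrk2* (r = 0.979), which encodes a protein kinase, and *Zc3h7a* (r = 0.979), which encodes a zinc finger protein. None of the 3 lies on the chromosome of *Irak2*.

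Exons of 6 of the 10 genes share bases with a protein-coding neighbour in the GENCODE M21 annotation, a build-matched annotation in which 9 of the 10 genes have positions identical to those deposited. The shared stretch was 290 bases for *Myd88* with *Acaa1a*, 838 bases for *Ticam2* with *Tmed7*, 39 bases for *Tirap* with *Srpr*, 192 bases for *Irak3* with *Tmbim4*, 395 bases for *Irak4* with *Twf1* and 411 bases for *Irf5* with *Tnpo3*. *Tmed7* lies on the strand of *Ticam2*, and the other 5 neighbours lie opposite to their gene. Depending on how overlapping reads were counted, the levels of these 6 genes are uncertain, most of all that of *Ticam2*, which had 67 to 357 counts per library beside 1888 to 3031 counts of *Tmed7*. *Myd88* and *Tirap* both lie on chromosome 9, and *Irak2* and *Irf5* both on chromosome 6.

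The third comparison set WT against *Unc93b1* 3d/3d TAMs under αMARCO. With edgeR, 0 of the 10 genes were called, beside 0% of the 15722 genes tested, of which 1076 had an unadjusted p under 0.05 and DESeq2 called 195. Of the 10 genes, 2 had an unadjusted p under 0.05 and DESeq2 called 0. The values of *Irak3* were 36.3 and 34.6 CPM in WT and 24.1 and 15.5 CPM in *Unc93b1* 3d/3d αMARCO TAMs, again without overlap, with a log2 fold change of 0.84 (SE 0.27, adjusted p = 0.687 from edgeR). *Ticam2* had 12.6 and 13.0 CPM against 6.68 and 4.56 CPM, also without overlap, with a log2 fold change of 1.18 (SE 0.29, adjusted p = 0.528 from edgeR). Without *Unc93b1* 3d/3d αMARCO replicate 1 the log2 fold changes were 1.20 for *Irak3* and 1.496 for *Ticam2*. Without replicate 2 of that group they were 0.56 and 0.94. Without WT αMARCO replicate 1 they were 0.81 and 1.22, and without WT αMARCO replicate 2 they were 0.88 and 1.16. Each of these fits leaves 1 library in an arm, which is assumed to vary like the pair in the other arm. Without *Unc93b1* 3d/3d αMARCO replicate 1, *Ticam1*, *Tirap* and *Irak1* were at 0.61, 0.66 and 0.999. Without replicate 2 of that group they were at 0.31, -0.05 and 0.23. *Irak2*, at 155 and 172 against 147 and 146 CPM, had a log2 fold change of 0.16 (SE 0.18). It was 0.17 and 0.15 without replicate 1 and replicate 2 of the *Unc93b1* 3d/3d αMARCO group. Both WT libraries were above both others for 6 of the 10 genes and below for 0, beside 22.1% and 22.2% of all genes tested, and the median log2 fold change was 0.24, beside -0.03 over all genes tested.

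The fourth comparison set αMARCO against control in *Unc93b1* 3d/3d TAMs. With edgeR, 0 of the 10 genes were called, beside 0% of the 15428 genes tested, of which 744 had an unadjusted p under 0.05 and DESeq2 called 52. Of the 10 genes, 1 had an unadjusted p under 0.05 and DESeq2 called 0. *Irak2* had 123 and 93.1 CPM in control and 147 and 146 CPM in αMARCO TAMs, with a log2 fold change of 0.44 (SE 0.23, adjusted p = 0.823 from edgeR), which was 0.45 without either αMARCO library. Both αMARCO libraries were thus above both controls for *Irak2*, the direction it had in WT. *Myd88* was at 164 and 173 CPM in control and at 179 and 255 CPM in αMARCO TAMs, with a log2 fold change of 0.37 (SE 0.26, adjusted p = 0.823 from edgeR), which was 0.61 without αMARCO replicate 1 and 0.09 without replicate 2. *Ticam2* was at 9.73 and 10.9 CPM in control and at 6.68 and 4.56 CPM in αMARCO TAMs, with a log2 fold change of -0.86 (SE 0.33, adjusted p = 0.823 from edgeR), which was -1.16 without αMARCO replicate 1 and -0.62 without replicate 2. *Irak1* had 135 and 145 CPM in control and 148 and 86.6 CPM in αMARCO TAMs. Its log2 fold change was -0.25 with all 4 libraries, -0.68 without αMARCO replicate 1 and 0.08 without replicate 2, so its direction rested on 1 library. Without αMARCO replicate 1, *Myd88*, *Ticam2*, *Tirap* and *Irak1* were called among 5500 genes, and without αMARCO replicate 2, 0 of the 10 were called among 571 genes. The αMARCO libraries were above both controls for 2 of the 10 genes and below both for 3, beside 19.7% and 19.2% of all genes tested.

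Whether the αMARCO effect differed between the genotypes was tested as an interaction over all 8 libraries. With edgeR, 0 of the 10 genes were called, beside 0% of the 16620 genes tested, of which 2549 had an unadjusted p under 0.05 and DESeq2 called 200. Of the 10 genes, *Myd88* alone had an unadjusted p under 0.05 and DESeq2 called 0. For *Irak2*, the effect in WT exceeded that in *Unc93b1* 3d/3d TAMs by 0.49 on the log2 scale (SE 0.23, adjusted p = 0.338 from edgeR), so a difference between the genotypes was not shown. It was 0.49 without *Unc93b1* 3d/3d αMARCO replicate 1 and 0.47 without replicate 2. The differences for the other kinases were 0.62 (SE 0.32) for *Irak1*, -0.25 (SE 0.32) for *Irak3* and 0.18 (SE 0.20) for *Irak4*. Without *Unc93b1* 3d/3d αMARCO replicate 1 the value of *Irak1* was 1.06, that of *Irak3* was 0.10, opposite in sign, and that of *Irak4* was 0.32. Without replicate 2 they were 0.28, -0.54 and 0.04. *Myd88* and *Ticam1* were at -0.87 and 0.57 without replicate 1, and at -0.37 and 0.25 without replicate 2. Each of these fits leaves 1 library in that group. The plot of fold changes sets the 4 comparisons side by side, which share libraries in pairs.

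**Figure D3:**
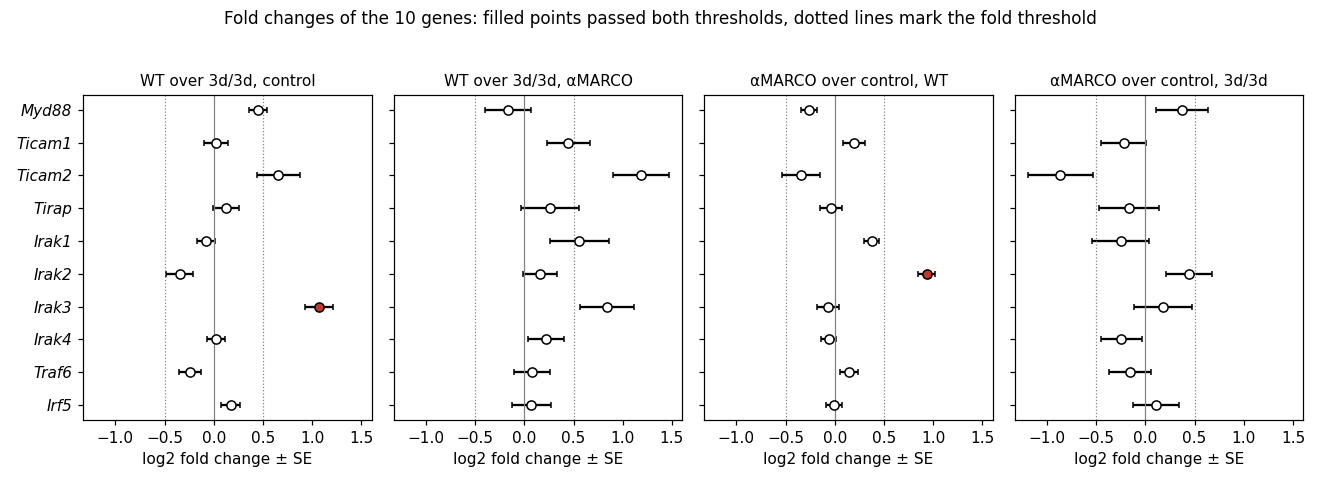
log2 fold changes (horizontal axes, points) with their standard errors (bars) for the 10 genes (rows) in 4 comparisons, from edgeR. Filled points passed both thresholds, namely *Irak3* at 1.07 for WT over *Unc93b1* 3d/3d in control and *Irak2* at 0.93 for αMARCO over control in WT, and the error bars are wider in both comparisons with the *Unc93b1* 3d/3d αMARCO libraries.

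The rest of the pathway was read in 7 lists of genes, none of which holds one of the 10. In control TAMs, of 23 TLR target genes tested, 14 were called higher in WT and 1 lower, beside 13.0% called over all genes, and their median log2 fold change was 0.74. The largest were *Il12b*, a subunit of IL-12 and IL-23 (4.99, SE 0.23), the chemokine *Ccl5* (2.54, SE 0.19), *Il23a* (1.86, SE 0.53) and *Il6* (1.42, SE 0.31). *Il23a* was near the floor, at 1.68 and 1.66 CPM in WT and 0.502 and 0.406 CPM in *Unc93b1* 3d/3d TAMs. Of 21 negative regulators, 5 were called, all higher in WT. The 4 largest were *Nfkbia*, the inhibitor of NF-κB (1.45, SE 0.10), *Tnip1* (1.001, SE 0.13) and *Tnfaip3* (0.92, SE 0.12), which restrain ubiquitin signals to NF-κB, and *Socs1*, a brake on cytokine receptors (0.67, SE 0.10). The T cell and conventional dendritic cell markers given above were higher in the same WT control libraries, and their part in these lists was not tested. *Irak3*, itself a negative regulator, had a log2 fold change of 1.07 beside these.

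Of 15 other transcription factors, 5 were called, all higher in WT, led by *Irf1* (0.81, SE 0.15) and the NF-κB subunits *Relb* (0.77, SE 0.12), *Nfkb1* (0.74, SE 0.11) and *Rel* (0.61, SE 0.13). Closer to the 10 genes, 1 of 24 kinases and ligases was called, *Map3k8*, the kinase TPL2 (0.94, SE 0.12). Of 19 receptors and co-receptors, *Unc93b1* was called higher in WT (0.58, SE 0.12) and *Tlr5*, the flagellin receptor, lower (-1.45, SE 0.27). In the IL-1 receptor family, whose members also use MYD88, 1 of 7 was called, *Il18r1* (2.06, SE 0.42). This receptor is also found on T cells, whose markers summed to 82.6 and 93.2 CPM in WT and 15.8 and 6.90 CPM in mutant controls. The part of T cells in the *Il18r1* level was not tested. Of 6 partners of IRF5, *Lyn* (0.50, SE 0.10) and *5430427O19Rik*, the gene of the IRF5 adaptor TASL (0.54, SE 0.15), were called higher in WT. All values named here had an adjusted p of at most 0.05 from edgeR.

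In WT TAMs given αMARCO, 1 of 23 TLR target genes was called higher and 6 lower, beside 20.7% called over all genes, with a median log2 fold change of 0.16. *Il12b* (-3.40, SE 0.17), *Ccl5* (-1.50, SE 0.08), *Il23a* (-1.39, SE 0.47) and *Il6* (-1.10, SE 0.26) were the largest, all lower with αMARCO. In the same libraries 8 of 8 T cell markers and 5 of 8 conventional dendritic cell markers were called lower, with median log2 fold changes of -3.16 and -2.72 over the tested markers, and their part in this list was not tested. The one called higher was *Acod1*, the enzyme that makes itaconate, from 22.3 and 27.9 CPM to 44.4 and 43.5 CPM. Among 20 negative regulators, 4 were called higher and 2 lower, the largest being *Sigirr* (-1.26, SE 0.24), *Tnip3* (0.85, SE 0.10), *Nfkbia* (-0.82, SE 0.09) and *Nfkbie* (0.67, SE 0.08). Of 24 kinases and ligases, *Map2k3*, a kinase of the p38 arm (0.63, SE 0.07), and *Peli1*, a ubiquitin ligase that acts with the IRAKs (0.52, SE 0.08), were called higher. *Peli1* had 109 and 113 CPM in control and 153 and 164 CPM in αMARCO TAMs. *Fosb* (0.63, SE 0.16) was called higher and *Relb* (-0.51, SE 0.11) lower among 15 transcription factors. *Tlr5* was called higher (1.24, SE 0.25) among 19 receptors, and *Il18r1* (-2.40, SE 0.25) and *Il1r1* (-0.56, SE 0.18) lower among 7 receptors of the IL-1 family. *Peli1* was also the only one of 6 IRF5 partners called. In the other 3 comparisons edgeR called 0 genes of each list. The WT control libraries stand in both of these comparisons, on opposite sides.

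**Figure D4:**
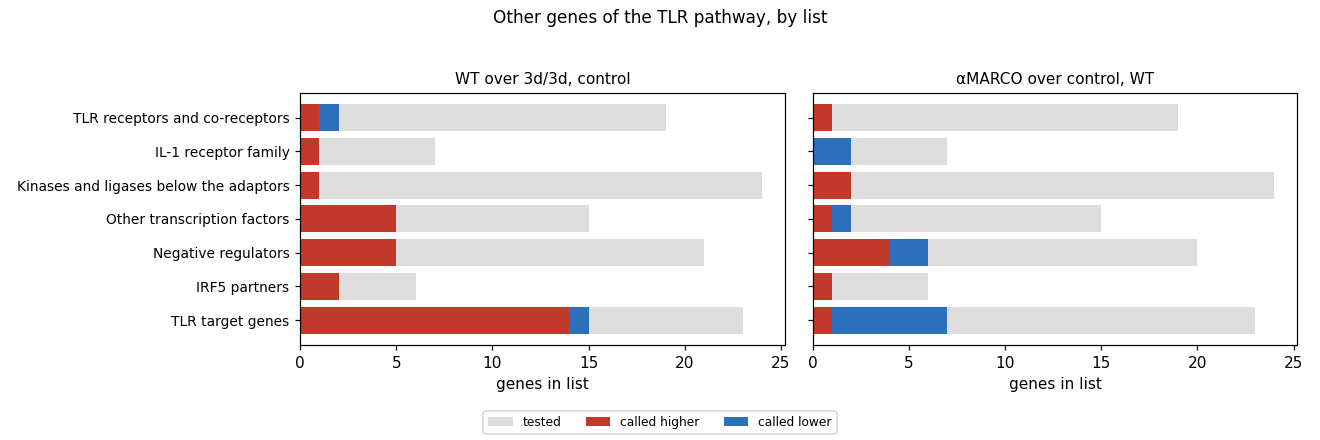
Number of genes (horizontal axes) tested, called higher and called lower in 7 lists of other TLR pathway genes (vertical axis), for WT over *Unc93b1* 3d/3d in control TAMs and for αMARCO over control in WT TAMs. TLR target genes have the most calls in both, 14 higher and 1 lower in the first and 1 higher and 6 lower in the second.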

How the data were processed

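TAM RNA was sequenced in 8 bulk libraries of 4 groups. Per the labels and methods, the authors cleaned reads with fastp, aligned them to GRCm38 with HISAT2 2.0.5 and counted them with featureCounts 1.5.0. Raw read counts per gene, deposited by the authors in 3 tables without normalization, were used. The deposited normalized values, FPKM and the authors' DESeq2 fold changes and p-values were not used. Tables were joined by gene identifier. Of 95230 counts present in more than 1 table, 0 differed, and a gene absent from a table was set to 0 (at most 1 count where it could be checked).

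In R 4.3.3, edgeR 4.0.16 was run with TMM, filterByExpr, robust dispersions and the quasi-likelihood test on the 4 libraries of each comparison, and on all 8 for the interaction, with Benjamini-Hochberg adjustment over all genes tested. A call needed an adjusted p no higher than 0.05 and a log2 fold change of 0.5 or more in either direction. The procedure was tested on simulated data. The floor of 3 counts was 0.114 to 0.198 CPM and covers counting error only. Likeness was Pearson's r of log2 CPM (prior count 2), over genes with a mean of at least 5 CPM.

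The members and lists were chosen with earlier results of these data known. The genes named are the 10 members and at most 4 called genes per list and comparison with the largest absolute log2 fold change, with exceptions named as such. The per-library values of *Acod1*, *Peli1* and *Il23a*, the loci within *Irak2* and the overlapping neighbours were picked after their values were seen. Alternatives were DESeq2 1.42.0, its size factors, other filters, fold thresholds and models, a replicate block, and each library left out in turn.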

Additional observations from a re-analysis of the deposited data

Results flagged for a closer look

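By the order of its libraries, *Myd88* went opposite ways in the genotypes under αMARCO, without a called difference. Both WT αMARCO libraries (193 and 193 CPM) were below both WT control libraries (227 and 239 CPM), as for 36.8% of all genes tested. Both *Unc93b1* 3d/3d αMARCO libraries (179 and 255 CPM) were above both of their controls (164 and 173 CPM), as for 19.7% of all genes tested. The share of genes with both orders was not counted. In *Unc93b1* 3d/3d TAMs the log2 fold change was 0.09 without αMARCO replicate 2. The difference of the effects was -0.63 on the log2 scale (SE 0.26, adjusted p = 0.318 from edgeR) and did not pass the threshold. With each library left out in turn it ranged from -0.87, without *Unc93b1* 3d/3d αMARCO replicate 1, to -0.37, without replicate 2 of that group. *Acaa1a*, which shares 290 exon bases with *Myd88*, had 165 and 313 CPM in replicates 1 and 2 of that group. It had 166 and 176 CPM in *Unc93b1* 3d/3d control, 183 and 166 CPM in WT control and 170 and 167 CPM in WT αMARCO TAMs. The part of *Acaa1a* reads in the *Myd88* counts was not tested.

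*Irak2* stood in opposite order between the genotypes in the control and αMARCO groups. In control both WT libraries (83.8 and 88.2 CPM) were below both *Unc93b1* 3d/3d libraries (123 and 93.1 CPM), as for 29.9% of all genes tested. With αMARCO both WT libraries (155 and 172 CPM) were above both others (147 and 146 CPM), as for 22.1% of all genes tested. The share of genes with both orders was not counted. The difference of the effects was 0.49 on the log2 scale (SE 0.23, adjusted p = 0.338 from edgeR), ranged from 0.27 to 0.67 with a library left out, and was called in none of these fits. No group has 4 libraries, so single libraries were not tested as outliers.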

How the results depend on the processing

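*Irak2* was called for αMARCO in WT under every alternative at the same fold threshold, and *Irak3* for the genotype in control TAMs under every such alternative except the model of all 8 libraries. Both fold changes kept their direction under every alternative. In control, WT against *Unc93b1* 3d/3d, the number of the 10 genes called was 2 with no low-count filter, 2 with the replicate block (adding *Ticam2*, adjusted p = 0.0187 from edgeR), 0 with all 8 libraries in 1 model, 2 without a fold threshold and 1 to 2 with a library left out. Over all genes it was 364 with all 8 libraries and 951 at a fold threshold of 1. For αMARCO in WT, 3 of the 10 were called without a fold threshold, 0 at a threshold of 1 and 1 to 2 with a library left out. Over all genes it was 164 with all 8 libraries, 5487 without a fold threshold, 1366 at a threshold of 1 and 1940 to 3951 with a library left out.

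For WT against *Unc93b1* 3d/3d under αMARCO, DESeq2 called 195 genes, no filter 107, the replicate block 97 and the model of all 8 libraries 108. For αMARCO in *Unc93b1* 3d/3d the same alternatives called 52, 174, 5 and 1, and for the interaction DESeq2 called 200 and no filter 152. With a library left out, these 3 comparisons called 17 to 6366, 1 to 5500 and 0 to 6440 genes, and 0 to 5, 0 to 4 and 0 to 3 of the 10 genes, with the highest numbers without *Unc93b1* 3d/3d αMARCO replicate 1. The cause was not tested. Deviations of same-numbered libraries correlated by -0.0768 to 0.135 between groups. With only 2 pairs per comparison, this cannot show whether the replicate numbers pair the libraries. Apart from *Ticam2* in control, the block changed the call of none of the 10 genes.

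*Ticam2* had 67 to 357 counts per library, and its WT control replicates differed by -0.59 (replicate 1 minus replicate 2) on the log2 scale. With 2 libraries per group, small changes could not be shown.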
